A study of Canis lupus familiaris with 24 samples.

Results

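Insulin-producing cells (IPCs) on day 13 were compared with undifferentiated canine adipose-derived mesenchymal stem cells (cAD-MSCs) of the same day by RT-qPCR, that is, by PCR on cDNA copied from total RNA. The samples were chosen by their labels, as the day 13 IPCs and the day 13 controls, which gave 8 of the 24 samples of the series, 4 in each group. All 13 genes with values in these samples were used, of 26 genes in the tables, and 0 of the 13 had values on another day. The 4 cAD-MSC lines each came from the abdominal fat of a different healthy donor dog, and each line gave both a control and an IPC sample. The control cells were kept undifferentiated in DMEM. The IPCs had passed through 3 stages, which began with Chir99021, a GSK3 inhibitor, and then Activin A, towards definitive endoderm. The second stage, towards pancreatic endocrine (PE) progenitors, used DAPT, dorsomorphin, a TGFβ inhibitor, nicotinamide, EGF, FGF2, retinoic acid and taurine. For the last 5 days the cells received forskolin, which raises cyclic AMP, with inhibitors of PI3K and TGFβ, Glp-1, nicotinamide and taurine. According to the methods, the induction media held no serum and the PE colonies were enclosed in alginate before the last stage, so medium, serum, three-dimensional culture and capsule all differ between the groups and cannot be told apart. Both groups are whole cell populations, in which fewer cells of a type and less RNA per cell cannot be told apart either.

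The beta cell of the pancreatic islet makes insulin and releases it when glucose rises. During its development, *Ngn3* commits a pancreatic progenitor to the endocrine lineage and switches on *NeuroD1*, which keeps the endocrine program going. Homeodomain factors such as *Nkx2.2*, *Nkx6.1* and *Isl1* then help to fix the islet cell type, and later factors such as *MafA* bind the *Insulin* promoter. Glucose enters through the transporter *Glut2*, and incretin hormones act through *Glp1r* and cyclic AMP, which *Epac2* senses, to raise insulin release. The adjacent alpha cell makes glucagon, so *Glucagon* was followed as the marker of another islet cell type.

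The authors deposited the threshold cycle (Ct), which is the PCR cycle where the dye signal passes a fixed level, and a ratio that sets each gene against *Gapdh*, the reference gene, within its sample. A later Ct stands for less template, and each cycle is taken as a doubling. Relative mRNA expression is that ratio over its mean in the 4 controls, whose own mean is then 1. Relative to *Gapdh*, the IPC samples lay wholly above the controls for 11 of the 13 genes and wholly below them for 0. This is 84.6% and 0% of the genes tested. The word panel stands for these 13 genes, which are all those with deposited values on day 13. The paper also reports *Pdx1* as upregulated in IPCs against undifferentiated cells, but *Pdx1* has no values in these samples and is not counted. With 4 samples against 4, groups that do not overlap give the smallest exact two-sided Mann–Whitney p-value, 0.0286, and this is 0.0338 after Benjamini-Hochberg adjustment over the 13 exact tests. The 11 genes spread over all 5 roles on the panel, with both endocrine bHLH factors, all 3 homeodomain factors, all 3 maturation factors, both hormones, and *Glut2* alone among the 3 genes of glucose and incretin sensing. The median relative expression of the 13 genes in IPCs was 27.2.

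**Figure D1:**
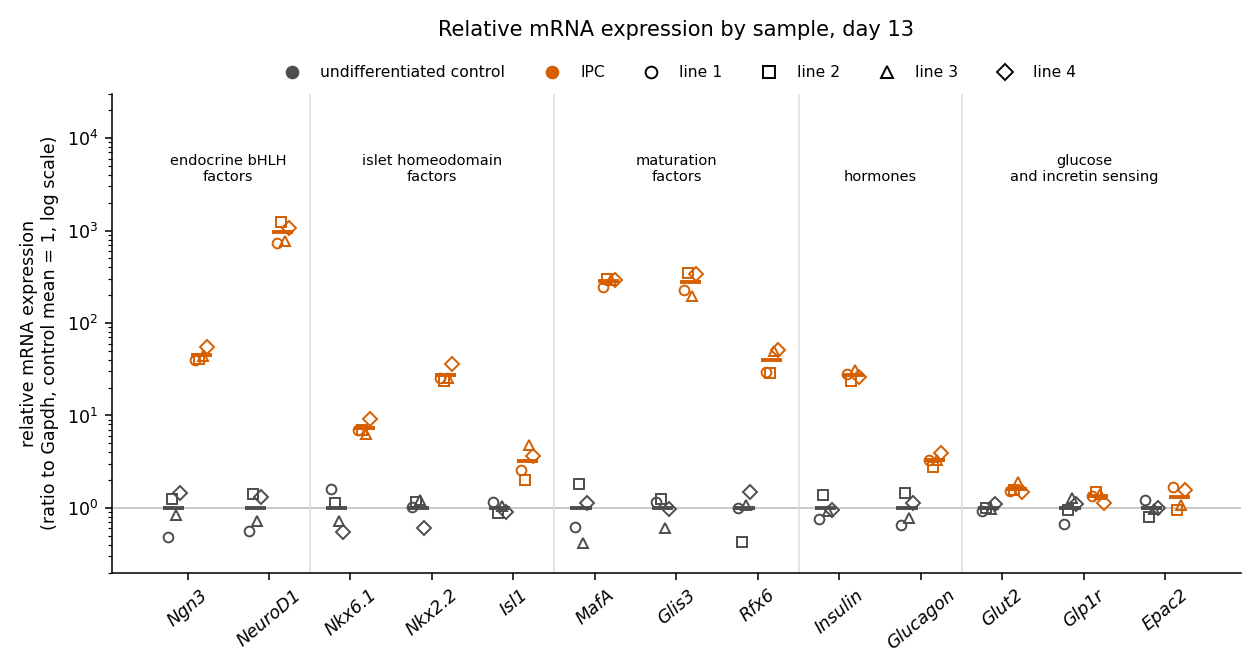
Relative mRNA expression (ratio to *Gapdh*, control mean = 1, log scale) of the 13 genes by role in undifferentiated controls (grey) and IPCs (orange) on day 13, with a symbol for each of the 4 cell lines and a bar at the mean of each group. The IPC samples lie above all controls for 11 genes, most of all for *NeuroD1*, *MafA* and *Glis3*, and overlap them for *Glp1r* and *Epac2*.

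*Gapdh* itself, which encodes an enzyme of glycolysis, appeared later in IPCs. Its Ct is not listed but can be derived from any gene's Ct and ratio. As the median over the 13 genes, this *Gapdh* Ct had values of 21.62, 21.65, 21.83 and 21.88 cycles for lines 1 to 4 in the controls and 26.89, 26.71, 26.76 and 27.14 cycles in their IPCs. The groups were far apart, and the shift of 5.13 cycles (exact two-sided permutation test, p = 0.0286) corresponds to 35.1 times less *Gapdh* template per reaction. The value depends on the gene it is derived from, and *Glut2* and *Glp1r* gave a shift of 1.89 cycles, or 3.71 times. The amount of RNA per reaction is not given in the sources used here, so less input RNA and less *Gapdh* mRNA per unit of RNA cannot be told apart. The log2 change of a ratio is the *Gapdh* shift minus the gene's own Ct shift, so a gene whose Ct did not move at all has a higher ratio in IPCs. Each gene is therefore given below on both scales. By raw Ct, 3 of 13 genes were higher in IPCs without overlap (23.1%) and 6 were lower (46.2%).

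Of the 5 genes taken as markers of insulin-producing cells, *NeuroD1*, *MafA*, *Glis3*, *Ngn3* and *Insulin*, all 5 were higher relative to *Gapdh* in every IPC sample, as were 84.6% of the whole panel, so this count says little about the markers. *NeuroD1*, *MafA* and *Glis3* also had Ct values that were wholly earlier in IPCs, whereas the raw Ct of *Ngn3* and of *Insulin* overlapped between the groups. On the mRNA level, *Insulin*, the marker that names the cells, was thus higher by the ratio to *Gapdh* and not by an earlier Ct. Outside this list, *Nkx6.1*, *Glut2* and *Glp1r*, which also serve the beta cell, had Ct values that were wholly later in IPCs. By the ratio to *Gapdh*, *Nkx6.1* and *Glut2* were higher without overlap and *Glp1r* overlapped. The protein and secretion assays of the study are not analysed here.

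**Figure D2:**
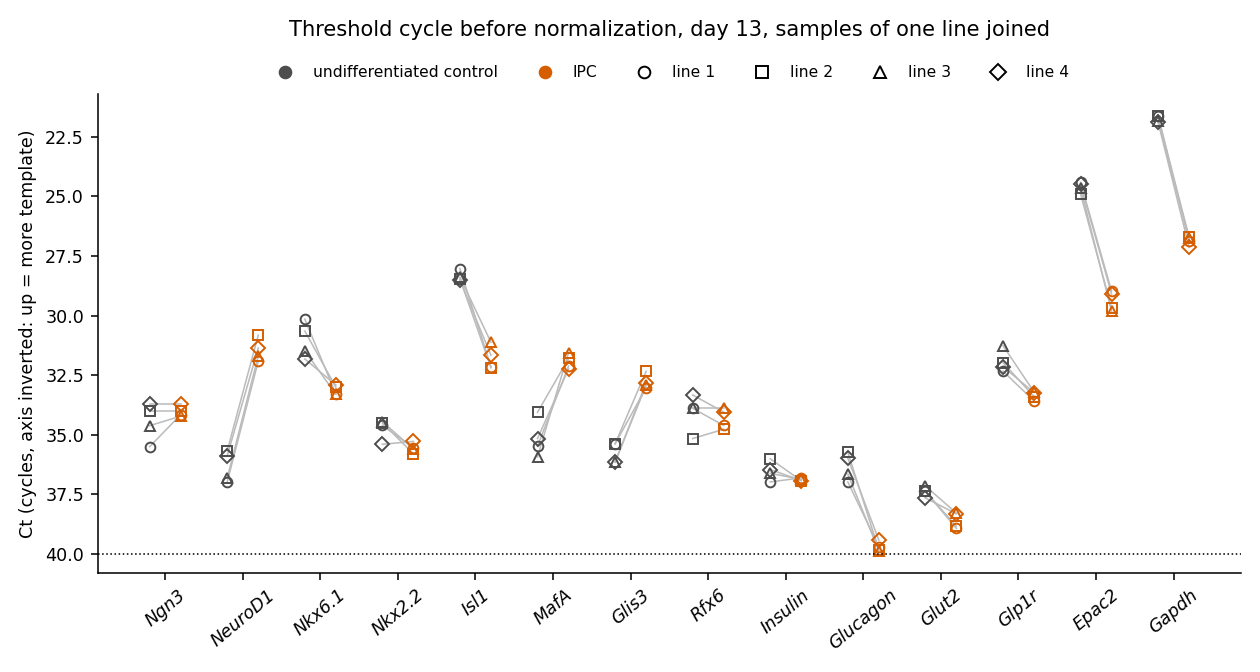
Ct before normalization (cycles, axis inverted so that up is more template) of the 13 genes and the derived *Gapdh* Ct (median over the genes) in controls (grey) and IPCs (orange) on day 13, with the samples of a cell line joined and the dotted line at 40 cycles, the highest Ct in the tables. *NeuroD1*, *MafA* and *Glis3* move up in all 4 lines, while *Isl1*, *Glucagon*, *Epac2* and *Gapdh* move down.

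Among the endocrine bHLH factors, *NeuroD1* had the largest change on the panel. Its relative expression was 0.559, 1.41, 0.724 and 1.31 in the controls of lines 1 to 4 and 726, 1250, 774 and 1066 in the IPCs. The lowest IPC sample was 515 times the highest control (exact Mann–Whitney test, p = 0.0286). The same order of lines appeared in both groups, with lines 2 and 4 above lines 1 and 3, so that the fold within a line stayed between 815 and 1299. The *NeuroD1* Ct was 36.98, 35.67, 36.82 and 35.88 cycles in the controls and 31.91, 30.82, 31.69 and 31.36 cycles in the IPCs. It fell by 4.89 cycles on average, in 4 of 4 lines, which is close to the size of the *Gapdh* shift in the opposite direction.

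*Ngn3*, which acts upstream of *NeuroD1* and is normally shut off as endocrine cells mature, had relative values of 0.481, 1.24, 0.831 and 1.45 in the controls and of 39.8, 40.6, 43.5 and 55.2 in the IPCs. The groups did not overlap (exact Mann–Whitney test, p = 0.0286), and the folds within lines were 32.8 to 82.8. Of the log2 change of 5.59, the *Gapdh* shift made up 5.16. The *Ngn3* Ct was 35.50, 34.02, 34.62 and 33.69 cycles in the controls and 34.16, 34.02, 34.22 and 33.69 cycles in the IPCs. Control and IPCs thus had the same Ct to 2 decimals in lines 2 and 4, and the groups overlapped (exact Mann–Whitney test, p = 0.657).

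The maturation factors *MafA* and *Glis3* came next to *NeuroD1*. *MafA*, an activator of *Insulin* transcription in mature beta cells, had relative values of 0.628, 1.84, 0.416 and 1.12 in the controls of lines 1 to 4 and of 248, 298, 295 and 296 in the IPCs. The IPC samples were the most alike of the panel, with a coefficient of variation of 8.58%, while the *MafA* controls were the most variable, at 63.0%. The fold within a line ranged from 162 in line 2, whose control was highest, to 710 in line 3, whose control was lowest. The Ct fell by 3.23 cycles on average, from 34.06 to 35.93 cycles in the controls to 31.55 to 32.24 cycles in the IPCs, without overlap (exact Mann–Whitney test, p = 0.0286).

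*Glis3*, a zinc finger factor needed for beta cell formation and *Insulin* transcription, had relative values of 1.16, 1.26, 0.611 and 0.968 in the controls and of 227, 352, 197 and 338 in the IPCs. Here lines 2 and 4 were again above lines 1 and 3 among the IPCs, and the folds within lines were 196 to 350. Its Ct was earlier in IPCs in 4 of 4 lines and fell by 2.99 cycles on average (exact Mann–Whitney test, p = 0.0286). The 4 control values of *Glis3* hold only 2 distinct numbers, 35.38 cycles in lines 1 and 2 and 36.15 cycles in lines 3 and 4.

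*Rfx6*, a factor that acts in islet development and later in hormone release, had relative values of 1.00, 0.432, 1.07 and 1.50 in the controls. In the IPCs they were 29.3, 28.6, 49.7 and 50.5, all above the controls (exact Mann–Whitney test, p = 0.0286), with lines 3 and 4 well above lines 1 and 2. The raw Ct did not follow. It was 33.89, 35.16, 33.88 and 33.33 cycles in the controls and 34.61, 34.77, 33.88 and 34.05 cycles in the IPCs, so line 3 had the same Ct in both samples and the groups overlapped (exact Mann–Whitney test, p = 0.543).

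The 3 homeodomain factors had mean relative values of 3.26 to 27.7 in IPCs, and none of them had an earlier mean Ct in IPCs. *Nkx2.2*, which maintains beta cell identity, was at 1.03, 1.15, 1.21 and 0.601 in the controls and at 25.7, 23.6, 25.4 and 36.3 in the IPCs (exact Mann–Whitney test, p = 0.0286). Line 4 had both the lowest control and the highest IPC value, and its fold, 60.3, stood apart from the 20.5 to 24.9 of the other lines. The mean *Nkx2.2* Ct moved from 34.74 cycles in controls to 35.56 cycles in IPCs, with overlap (exact Mann–Whitney test, p = 0.0571).

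*Nkx6.1*, which in the islet is restricted to beta cells, had relative values of 1.59, 1.14, 0.730 and 0.543 in the controls and of 6.97, 6.90, 6.34 and 9.07 in the IPCs. The IPC samples lay close together above the controls (exact Mann–Whitney test, p = 0.0286), whereas the fold within a line went from 4.39 in line 1 to 16.7 in line 4, in the reverse order of the controls. By raw Ct the direction was opposite. The *Nkx6.1* Ct was 30.15 to 31.82 cycles in the controls and 32.91 to 33.30 cycles in the IPCs, a rise of 2.10 cycles in which 4 of 4 lines took part.

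*Isl1*, a LIM homeodomain factor of all islet endocrine cells, had relative values of 1.16, 0.884, 1.05 and 0.910 in the controls and of 2.56, 2.02, 4.83 and 3.61 in the IPCs. The groups separated (exact Mann–Whitney test, p = 0.0286), but the IPC samples varied more than those of any other gene, with a coefficient of variation of 38.1%. The fold was 2.29 in line 2 and slightly less in line 1, and it was 4.62 in line 3 and 3.97 in line 4. The *Isl1* Ct rose by 3.44 cycles, from 28.03 to 28.51 cycles in the controls to 31.12 to 32.19 cycles in the IPCs, which is less than the *Gapdh* shift and therefore leaves a higher ratio.

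Both hormones were higher relative to *Gapdh*, *Insulin* by far the more. *Insulin* had relative values of 0.765, 1.38, 0.918 and 0.941 in the controls and of 28.1, 23.9, 30.7 and 26.0 in the IPCs (exact Mann–Whitney test, p = 0.0286). The folds within lines were 36.7, 17.3, 33.4 and 27.6, the smallest in line 2, which had the highest control and the lowest IPC value. The *Insulin* Ct was 36.98, 36.01, 36.62 and 36.46 cycles in the controls and 36.81, 36.93, 36.87 and 36.92 cycles in the IPCs. These 4 IPC values lay within 0.12 cycles of each other, inside the range of the controls, and both groups gave late signals (exact Mann–Whitney test, p = 0.343).

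*Glucagon* had relative values of 0.658, 1.44, 0.776 and 1.13 in the controls and of 3.26, 2.75, 3.30 and 3.96 in the IPCs (exact Mann–Whitney test, p = 0.0286). In line 2 the fold was 1.91 and in the other lines 3.52 to 4.96. Its Ct, by contrast, was 39.70, 39.83, 39.87 and 39.42 cycles in IPCs, the latest values on the panel and close to 40 cycles, the highest Ct in the tables, against 35.73 to 36.98 cycles in the controls. The *Glucagon* ratios of IPCs therefore rest on signals near the end of the measured range.

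The genes of glucose and incretin sensing had the smallest changes with the *Gapdh* values of their own sets. With a common *Gapdh* value *Glut2* and *Glp1r* were at 15.6 and 12.5, above *Nkx6.1*, *Isl1* and *Glucagon*. That common value, however, averaged 21.74 cycles in controls and 26.88 cycles in IPCs, against 22.63 and 24.52 cycles in their own set. These figures thus set the Ct of *Glut2* and *Glp1r* against a *Gapdh* value that is not that of their set. The *Epac2* Ct moved 4.79 cycles later, the largest shift of the panel in size after that of *NeuroD1*, which moved earlier. *Glut2*, the glucose transporter of beta cells and hepatocytes, had relative values of 0.923, 1.01, 0.976 and 1.09 in the controls and of 1.51, 1.55, 1.90 and 1.49 in the IPCs. The groups were separate although close (exact Mann–Whitney test, p = 0.0286), since the controls had the smallest coefficient of variation of the panel, 7.11%. *Glut2* signals were late throughout, at 37.15 to 37.65 cycles in the controls and 38.29 to 38.93 cycles in the IPCs. *Glp1r*, the receptor for the Glp-1 in the medium, had relative values of 0.672, 0.949, 1.28 and 1.10 in the controls and of 1.36, 1.49, 1.42 and 1.12 in the IPCs. The control of line 3 exceeded the IPCs of line 4, so the groups overlapped (exact Mann–Whitney test, p = 0.0571), and the fold within a line was 2.02 in line 1, 1.57 in line 2, 1.11 in line 3 and 1.02 in line 4. Without line 3 or without line 4 the groups separated, at 1.46 and 1.47 times the controls. In the limma model without the cell line, the log2 change of *Glp1r* was 0.46 with a 95% confidence interval from -0.09 to 1.02.

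*Epac2*, an exchange factor for Rap activated by cyclic AMP, had relative values of 1.22, 0.804, 0.977 and 0.994 in the controls and of 1.69, 0.948, 1.08 and 1.55 in the IPCs. Lines 2 and 3 of the IPCs lay within the control range (exact Mann–Whitney test, p = 0.343). The log2 change in the limma model was 0.37 with a 95% confidence interval from -0.20 to 0.94. Each line was nevertheless higher in IPCs, by 1.10 to 1.56 times. *Epac2* gave the earliest signals of the panel, at 24.41 to 24.89 cycles in the controls and 28.97 to 29.81 cycles in the IPCs. Its Ct shift, 4.79 cycles, was the nearest to that of *Gapdh*, so the ratio hardly moved.

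The 13 genes did not share a single *Gapdh* value per sample. Within 0.1 cycles in all 8 samples, they fell into 5 sets, namely *Ngn3*, *Insulin*, *Glucagon* and *Epac2*, then *NeuroD1*, *Nkx6.1* and *Isl1*, then *Nkx2.2* with *Rfx6*, *MafA* with *Glis3*, and *Glut2* with *Glp1r*. The *Gapdh* shift was 5.08 to 5.64 cycles in the first 4 sets and 1.89 cycles in the set of *Glut2* and *Glp1r*. With the median *Gapdh* Ct of each sample applied to all genes, *Glut2* was 15.6 times and *Glp1r* 12.5 times the controls, and *Glp1r* then separated too. The other 11 genes moved by less than 1.5 times under this choice. For *Glut2* and *Glp1r* it replaced the mean *Gapdh* Ct of their set, 22.63 cycles in controls and 24.52 cycles in IPCs, by 21.74 and 26.88 cycles. The *Gapdh* values of *Glut2* had nearly the same decimals as those of *Glis3* in all 8 samples. For lines 1 to 4 they were 22.50, 22.63, 22.35 and 23.01 cycles in controls and 24.77, 24.71, 24.45 and 24.14 cycles in IPCs. Those of *Glis3* were 21.50, 21.63, 21.35 and 22.02 cycles in controls and 26.77, 26.71, 26.45 and 27.13 cycles in IPCs. The shift of 1.89 cycles therefore cannot be taken as a separate measurement. How this arose and which *Gapdh* value applies was not tested.

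Within a set, the difference in Ct between a pair of genes does not contain *Gapdh*. Such differences were compared for the 12 pairs of genes that share a set, and 7 of them (58.3%) separated IPCs from controls (exact Mann–Whitney test, p = 0.0286, and 0.0490 after adjustment over the 12 exact tests). Pairs of a set have genes in common, so the 12 differences are not independent and the 7 are not separate results. The balance of the hormones was the most even across lines. The *Glucagon* Ct minus the *Insulin* Ct was 0, -0.28, 0.03 and -0.48 cycles for lines 1 to 4 in the controls and 2.89, 2.90, 3.00 and 2.50 cycles in the IPCs. Each line moved by 2.89 to 3.18 cycles, so that *Insulin* rose 8.03 times against *Glucagon* within the same samples. By raw Ct, *Glucagon* came 3.37 cycles later in IPCs on average and *Insulin* 0.365 cycles later. By the ratio to *Gapdh*, *Insulin* was at 27.2 times and *Glucagon* at 3.32 times the controls. Which of the hormones moved thus depends on the scale, and their difference in Ct cannot tell. The late *Glucagon* Ct in IPCs, close to 40 cycles, makes this difference the least precise on its IPC side, and its size rests on the end of the measured range. The difference of 0 in the control of line 1 comes from 36.98 cycles listed for both genes.

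In the same set, *Ngn3* rose 14.0 times against *Glucagon* and 37.3 times against *Epac2*, and *Insulin* rose 21.4 times against *Epac2*, all without overlap. *Glucagon* rose 2.67 times against *Epac2*, also without overlap. The *Epac2* Ct moved 4.79 cycles later, close to the 5.16 cycles of *Gapdh* in this set. The folds against *Epac2* therefore nearly repeat the ratios to *Gapdh*, which were 44.8 for *Ngn3*, 27.2 for *Insulin* and 3.32 for *Glucagon*, and are not separate evidence. The fold of *Ngn3* against *Glucagon* rests on the late *Glucagon* Ct of IPCs. Against *Insulin*, *Ngn3* gained 0.46 to 1.17 cycles, in 4 of 4 lines, or 1.74 times on average. The *Insulin* Ct minus the *Ngn3* Ct was 1.48 to 2.77 cycles in the controls and 2.65 to 3.23 cycles in the IPCs, which overlapped (exact Mann–Whitney test, p = 0.114).

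*NeuroD1* changed most against the genes of its set. The *Isl1* Ct minus the *NeuroD1* Ct was -8.95, -7.22, -8.43 and -7.37 cycles in the controls and 0.25, 1.37, -0.57 and 0.31 cycles in the IPCs, a change of 322 times in favour of *NeuroD1*. Against *Nkx6.1* the change was 127 times, and in 4 of 4 IPC samples the *NeuroD1* signal came before that of *Nkx6.1*, while in 4 of 4 controls it came after it. The difference between *Nkx6.1* and *Isl1* changed in the same direction in all lines, by 0.91 to 2.07 cycles, and overlapped (exact Mann–Whitney test, p = 0.0571). Neither *MafA* against *Glis3*, *Nkx2.2* against *Rfx6* nor *Glut2* against *Glp1r* separated (exact Mann–Whitney test, p = 0.686, 0.343 and 0.486), and their changes differed in sign between lines.

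**Figure D3:**
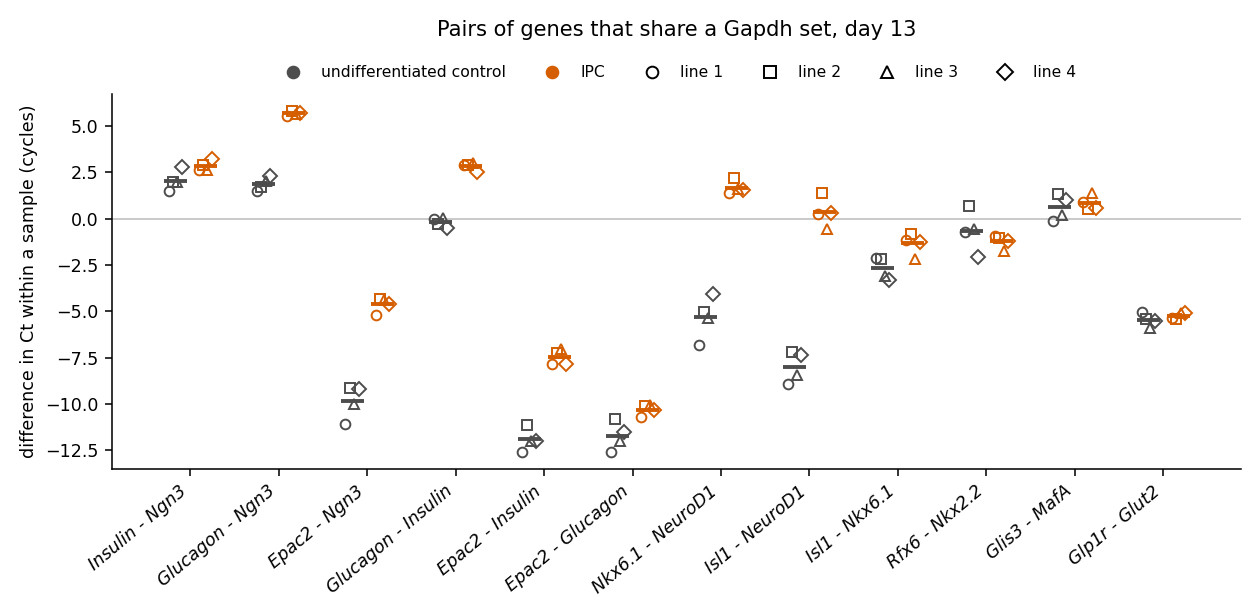
Difference in Ct (cycles) between the genes of each of the 12 pairs that share a *Gapdh* set, the gene named first minus the gene named after it, in controls (grey) and IPCs (orange) on day 13, with a symbol for each of the 4 lines and a bar at the mean. A rise means that the gene named last gained on the gene named first. The differences of *Glucagon* minus *Insulin* lie at -0.48 to 0.03 cycles in controls and at 2.50 to 3.00 cycles in IPCs.

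The direction for most of the panel differed between *Gapdh* and raw Ct. With the other 12 genes, by their mean Ct, in place of *Gapdh*, which includes genes of all sets, 3 genes were higher without overlap (23.1%) and 6 lower (46.2%), and these were the genes named by raw Ct. A mean over the panel centres the panel, so genes on both sides follow from the construction, and only the order of the genes can be read from it. *NeuroD1*, *MafA* and *Glis3* were higher under all 4 references, at 28.7, 8.45 and 7.79 times the controls by raw Ct and at more under the others. All 4 use the same Ct values of these genes, so they are not separate results. *Nkx6.1*, *Isl1*, *Glucagon* and *Glut2* were higher by either use of *Gapdh* and lower, without overlap, by raw Ct and against the other genes. *Ngn3*, *Nkx2.2*, *Rfx6* and *Insulin* separated by *Gapdh* and overlapped under both other references.

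**Figure D4:**
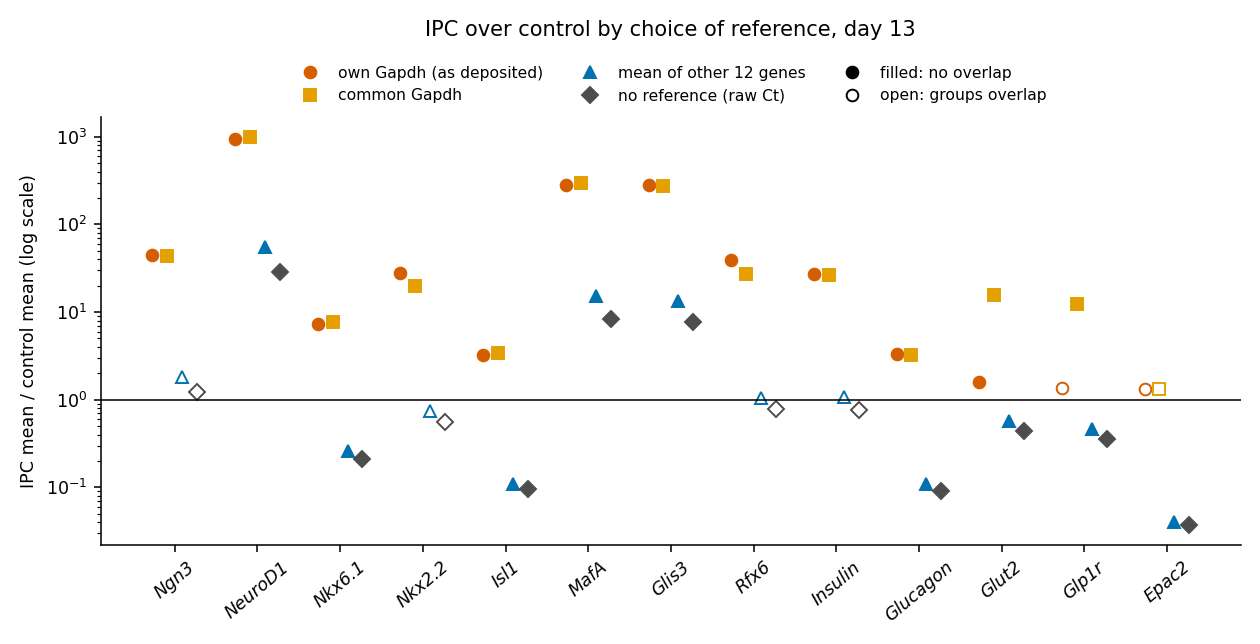
Mean of the IPCs over the mean of the controls (log scale) for the 13 genes on day 13 with the *Gapdh* value of each gene's own set, a common *Gapdh* value per sample, the mean of the other 12 genes, and no reference. Filled symbols mark groups that do not overlap and open symbols groups that do. *NeuroD1*, *MafA* and *Glis3* stay above 1 under all 4 references, and 6 genes lie below 1 without overlap under the last 2.

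Ordered by mean relative expression in IPCs, the genes ran *NeuroD1*, *MafA*, *Glis3*, *Ngn3*, *Rfx6*, *Nkx2.2*, *Insulin*, *Nkx6.1*, *Glucagon*, *Isl1*, *Glut2*, *Glp1r* and *Epac2*. *NeuroD1* stood above *MafA* in all 4 lines, with IPC values that did not overlap. Neighbours whose IPC values overlapped were *MafA* and *Glis3*, *Ngn3* and *Rfx6*, *Rfx6* and *Nkx2.2*, *Nkx2.2* and *Insulin*, *Glucagon* and *Isl1*, and *Glp1r* and *Epac2*. This order depends on the *Gapdh* set of each gene, most of all for *Glut2* and *Glp1r*.

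The 4 IPC samples were more alike than the 4 controls for most genes. The SD of the log2 ratio was smaller in IPCs for 10 of 13 genes, the exceptions being *Isl1*, *Glut2* and *Epac2*, and the median coefficient of variation of relative expression was 16.4% in IPCs and 28.7% in controls. Late Ct values, the least precise, were more frequent in controls, with 26 of 52 at 35 cycles or more against 16 of 52 in IPCs. The difference in spread was not tested. No line led throughout, since the highest IPC value was found in line 1 for 1 gene, in line 2 for 4, in line 3 for 3 and in line 4 for 5 genes.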

How the data were processed

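RT-qPCR values of day 13 were taken from 4 IPC samples and 4 undifferentiated controls. Per the labels, RNA was extracted with TRIzol and Direct-zol, reverse transcribed with ImProm-II and amplified with SYBR Green. The authors deposited raw Ct values in cycles and the linear ratio of each gene to *Gapdh* (2 to the power of minus ΔCt). Replicate wells and amplification efficiencies are not given in the sources used here. The fold changes that the authors calculated were not used. All 13 official symbols matched the RefSeq gene table (assembly UU_Cfam_GSD_1.0), but its coordinates were not printed because the files name no build. Ct values have no read depth, and late values are the least precise.

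Each ratio was divided by the mean of the controls. Genes were compared by the Mann–Whitney test of the methods, two-sided, with exact p-values from all regroupings of the 8 samples. A gene was called when the groups did not overlap (exact p = 0.0286). The *Gapdh* Ct was derived as Ct plus log2 of the ratio, and genes whose values agreed within 0.1 cycles formed a set. Named genes were all 13, in 5 roles. The genes, roles and alternatives were chosen with earlier results of these data known, and the comparison of pairs within *Gapdh* sets was added after the values were seen. Same-numbered samples share a donor and are paired, but the exact tests did not use this pairing. Across genes, the deviations of control and IPCs correlated with Pearson's r of 0.147, 0.535, 0.396 and -0.125 in lines 1 to 4. Alternatives were other references, a gain of 1.8 per cycle, each line left out, a permutation test, adjusted p-values, limma with and without the line, filters on late Ct, and geometric means. Python 3.11.15, numpy 2.4.6, scipy 1.17.1, matplotlib 3.10.9 and limma 3.58.1 in R 4.3.3 were used. The Mann–Whitney, permutation and limma tests were first run on simulated data.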

Additional observations from a re-analysis of the deposited data

Results flagged for a closer look

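In 54 groups of 4 values (the relative expression and Ct of each gene in each group, and the *Gapdh* Ct), 4 held a value far from the other 3 by Dixon's criterion, and chance gives about 1 in 20. The relative *Nkx2.2* expression of IPC line 4 was 36.3, above the other IPCs. The control of the same line had a *Nkx2.2* Ct of 35.40 cycles, later than the 34.45 to 34.61 cycles of the other controls. The relative *MafA* expression of IPC line 1 was 248, below the 295 to 298 of the other IPCs. The relative *Glut2* expression of IPC line 3 was 1.90, above the 1.49 to 1.55 of the others.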

How the results depend on the processing

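Leaving out a line gave 11 to 12 genes higher and 0 lower, *Glp1r* being added without line 3 or line 4, and moved the *Gapdh* shift between 5.09 and 5.20 cycles. With 3 samples a group no exact p can go below 0.1. The exact permutation test, Benjamini-Hochberg adjustment and a gain of 1.8 per cycle each gave 11 genes higher and 0 lower. These outcomes were fixed by the main calls and are no check on them. With 4 samples a group the permutation test can call only groups that do not overlap. The adjusted values follow from 11 equal p-values among 13, and a gain of 1.8 keeps the order of the samples. Limma without the line, which could differ, gave 11 genes higher and 0 lower. The replicate block, limma with the line as a factor for the paired samples, gave 11 higher and 0 lower too and changed no call, and pairing by direction alone gave 13 of 13 genes higher in all 4 lines. Filters on a mean Ct of 35 in both groups or of 38 in either left 8 of 10 and 9 of 11 genes higher. A gain of 1.8 lowered the larger changes most, *NeuroD1* to 338 times, *MafA* to 123 times and *Glis3* to 118 times the controls. For the pairs of genes, checked in ways chosen after seeing the data, 7 to 9 of 12 separated without a line, 9 of 12 moved in the same direction in all 4 paired lines, and the change of *Glucagon* against *Insulin* was 2.95 to 3.04 cycles without a line.

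The reference moved the counts most. By raw Ct and by the mean of the other genes, 3 genes were higher and 6 lower. By raw Ct the direction turned for *Nkx6.1* (0.212 times the controls), *Nkx2.2* (0.554), *Isl1* (0.0958), *Rfx6* (0.784), *Insulin* (0.754), *Glucagon* (0.0919), *Glut2* (0.439), *Glp1r* (0.358) and *Epac2* (0.0371). Against the other genes it turned for *Nkx6.1* (0.262), *Nkx2.2* (0.748), *Isl1* (0.110), *Glucagon* (0.110), *Glut2* (0.576), *Glp1r* (0.461) and *Epac2* (0.0403). The construction of both removes the later *Gapdh* Ct of IPCs, and that of the second puts genes on both sides. Precision is limited by 4 lines and by late Ct values, of which 26 of 52 in the controls and 16 of 52 in IPCs were at 35 cycles or more.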

Other observations

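Several Ct values of day 13 recur to 2 decimals. The control of line 1 is listed at 36.98 cycles for *NeuroD1*, *Insulin* and *Glucagon*. The controls of lines 1 and 2 share 37.38 cycles for *Glut2*. Together with the repeats of *Ngn3*, *Glis3* and *Rfx6* given above, 9 pairs of equal values were found within a gene or within a sample. How these repeats arose was not tested.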
